A study of Mus musculus with 12 samples.

Results

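The genes of the mitochondrial ribosome were compared between the gastrocnemius, the main calf muscle, of mini-muscle mice and of mice with muscle of regular size. The genes were those whose platform symbol begins with Mrpl or Mrps followed by a digit and which have a probe set of their own. They number 76 of the 18194 genes on the Affymetrix arrays, 47 named Mrpl and 29 named Mrps, and each was read by its probe set of highest mean log2 intensity. Mrpl30 and Mrpl53, whose symbols the rule would also take, are read only by probe sets shared with another gene and are not analysed here.

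All 12 arrays came from male mice of closed lines bred for high voluntary wheel running, at generation 37 and a mean age of 84 days (79 to 86 days), so lines bred without that selection are not part of the comparison. The 6 mini-muscle arrays came from line 3, with left and right muscle of each animal pooled, and the 6 regular-muscle arrays from line 8, with the muscle of 1 limb each. Line and pooling of limbs go with the phenotype on every array, and the 3 cannot be told apart in any difference below. Each array holds a different animal, each phenotype is represented by 1 line, and replicate numbers only name the arrays. Intensities come from MAS5, which summarises the probes of a probe set into 1 value per array, and are given as log2. A positive difference means higher in mini-muscle; each comes with the standard error (SE) of the fit and rests on n = 6 arrays per group.

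Mitochondria keep a ribosome of their own, which translates the few messenger RNAs made from mitochondrial DNA, all of them for subunits of the respiratory chain. Its RNAs are encoded in the mitochondrion, whereas every protein of its small subunit (mostly named Mrps) and large subunit (mostly named Mrpl) is encoded in the nucleus, made in the cytosol and imported. Many of these proteins have counterparts in bacterial ribosomes, and others are specific to mitochondria. In muscle, fibres rich in mitochondria depend on this ribosome to build their respiratory chain. The mini-muscle phenotype is an inherited reduction of hindlimb muscle mass whose allele maps to chromosome 11.

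The promoters of 5 of these genes are shown because their transcripts carry results described below. Mrpl12 and Mrpl3 were the increases that stayed called whichever single array was left out. Mrpl55, Mrpl23 and Mrpl42 were the decreases in which the groups of arrays did not overlap. Each is the stretch of 250 bases before the annotated start, from RefSeq (GRCm38.p6), read in the direction of the gene. Capitals mark matches, on either strand, to the letters of any of the 7 motifs described next.
Mrpl12 (chr11:120484387-120484636, plus strand): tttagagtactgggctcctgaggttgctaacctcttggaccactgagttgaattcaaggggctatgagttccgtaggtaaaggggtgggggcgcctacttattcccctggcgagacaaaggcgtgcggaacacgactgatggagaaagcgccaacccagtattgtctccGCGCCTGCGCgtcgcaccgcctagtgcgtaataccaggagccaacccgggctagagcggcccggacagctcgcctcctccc
Mrpl3 (chr9:105053018-105053267, plus strand): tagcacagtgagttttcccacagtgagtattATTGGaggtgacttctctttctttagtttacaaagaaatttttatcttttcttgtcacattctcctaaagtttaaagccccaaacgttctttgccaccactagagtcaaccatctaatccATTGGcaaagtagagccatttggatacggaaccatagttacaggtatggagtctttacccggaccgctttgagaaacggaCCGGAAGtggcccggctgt
Mrpl55 (chr11:59202236-59202485, plus strand): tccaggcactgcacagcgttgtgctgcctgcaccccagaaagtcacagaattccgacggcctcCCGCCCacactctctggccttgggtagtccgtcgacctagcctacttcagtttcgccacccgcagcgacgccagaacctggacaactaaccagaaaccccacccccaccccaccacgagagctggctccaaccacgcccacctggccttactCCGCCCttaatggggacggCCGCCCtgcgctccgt
Mrpl23 (chr7:142532782-142533031, plus strand): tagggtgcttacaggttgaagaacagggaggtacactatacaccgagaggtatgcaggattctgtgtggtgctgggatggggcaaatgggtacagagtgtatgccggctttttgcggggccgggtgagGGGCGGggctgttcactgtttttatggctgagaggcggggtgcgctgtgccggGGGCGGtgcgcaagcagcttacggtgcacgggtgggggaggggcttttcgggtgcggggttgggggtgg
Mrpl42 (chr10:95501950-95502199, minus strand): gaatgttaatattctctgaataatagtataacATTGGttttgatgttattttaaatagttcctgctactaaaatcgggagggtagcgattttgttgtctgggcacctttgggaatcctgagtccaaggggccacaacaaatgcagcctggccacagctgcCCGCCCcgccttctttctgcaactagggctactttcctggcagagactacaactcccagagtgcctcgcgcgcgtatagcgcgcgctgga

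In these stretches the capitals mark an NRF-1 match in Mrpl12, an ETS match and 2 CCAAT boxes in Mrpl3, 3 Sp1 matches in Mrpl55, 2 Sp1 matches in Mrpl23, and an Sp1 match with a CCAAT box in Mrpl42. Promoter entries were found for 67 of the 76 genes, 73 promoters in all, each searched on both strands over 300 bases (250 before and 50 after the start). CCGGAAG, the core bound by ETS factors such as GABP, was present in 25 of the 73 (34.2%), against 11.6% of the 21263 promoters of protein-coding genes and 8.86% of all 32851 promoters. The element of NRF-1 (GCGCA and GCGC with 1 base between them), an activator of nuclear genes for mitochondria, was present in 12 (16.4%, against 6.38% and 4.6%). AAGATGG, bound by YY1, was present in 13 (17.8%, against 6.24% and 6.34%). GGGCGG, bound by Sp1, was found in 53.4% of the promoters of these genes (46.2% and 35.7%), CCAAT in 39.7% (38.2% and 37.4%), and AAGGTCA, the half-site of the estrogen-related receptors, in 5.48% (4.08% and 4.72%). TATAAA was found in 6.85% (12.6% and 13.6%). Matches of different motifs shared bases in 2 promoters, and a match is a description of these letters, not a bound site.

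In muscle as a whole, the transcripts of the mitochondrial ribosome did not move as a block between mini-muscle and regular muscle. In whole muscle, fewer cells of a type and less RNA per cell cannot be told apart. Of the 76 genes, all of which passed the filter on dim genes, 6 were higher and 10 lower in mini-muscle and 60 did not pass (limma, Benjamini-Hochberg adjusted p under 0.05 over all 9097 genes tested). The called share was 21.1%, against 26.7% of all genes tested. Higher calls made up 7.89% (background 14.9%) and lower calls 13.2% (background 11.8%). The median difference over the 76 genes was -0.03 and over all genes tested 0.03, and 35 of the 76 differences were positive. Complete separation of the 6 arrays of either group was seen for 3 of the 76 genes, or 3.95%, where the background is 13%. Changes were small: 3 of the 16 called genes reached 1.5-fold, and 0 reached 2-fold. For 57 of the 60 genes that did not pass, the 95% interval of the difference lay within 1.5-fold in either direction.

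**Figure D1:**
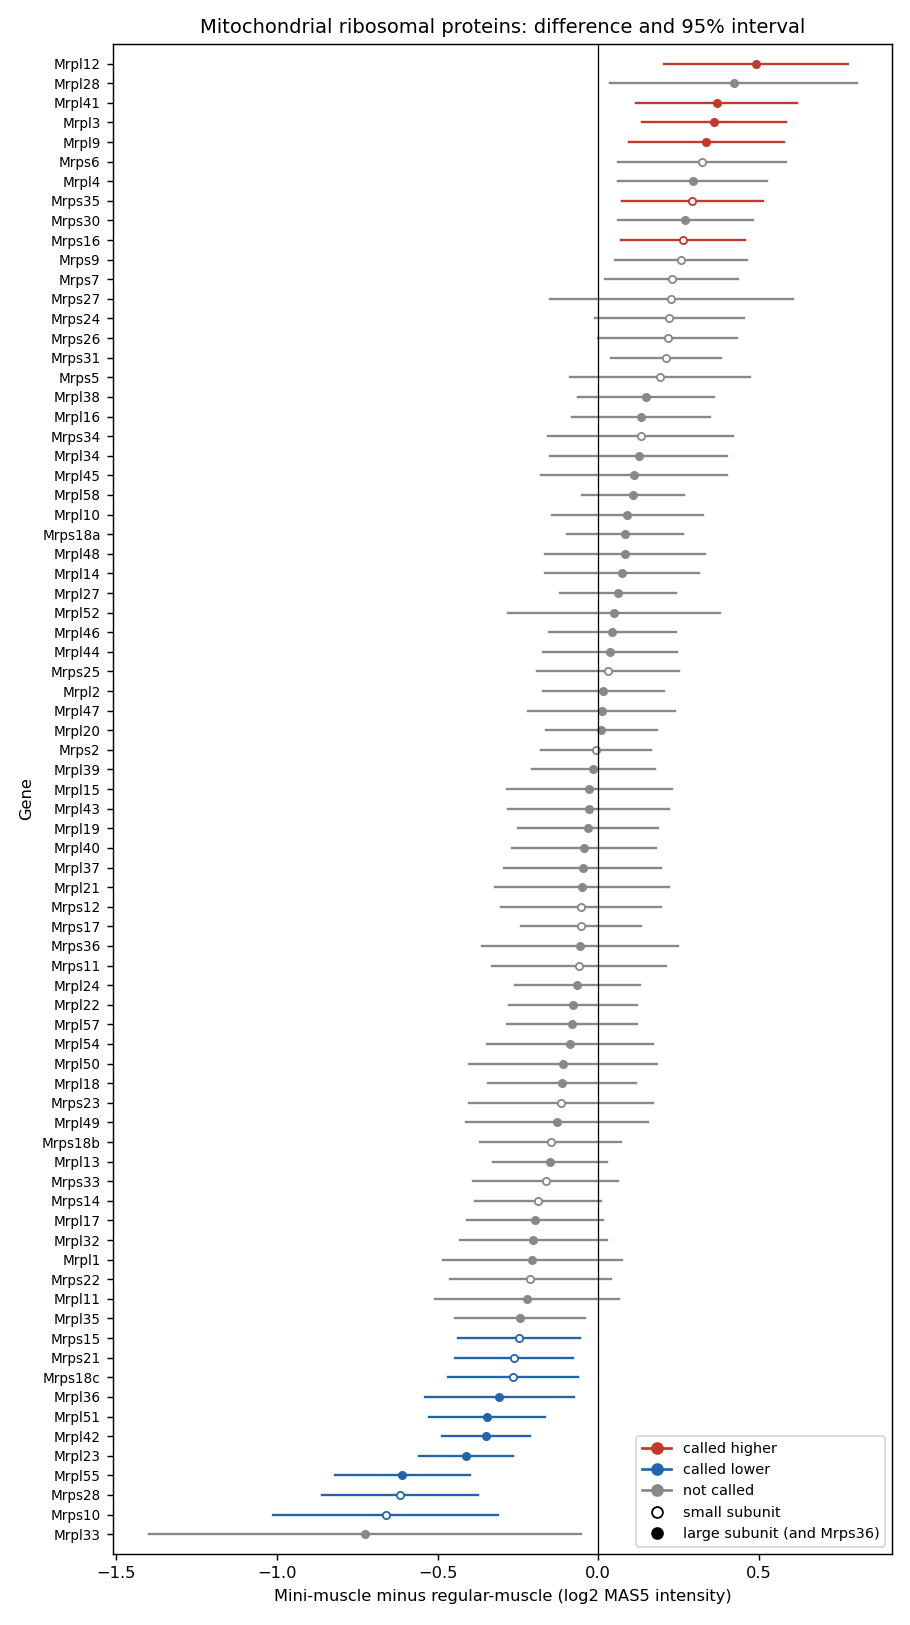
Differences of the 76 genes in log2 MAS5 intensity, positive where mini-muscle is higher (horizontal axis), sorted from the lowest (bottom) to the highest, with points for the fitted difference and lines for its 95% interval (n = 6 arrays per group). Red and blue mark the 6 genes called higher and the 10 called lower, open points the small subunit; the differences run from -0.73 (Mrpl33) to 0.49 (Mrpl12).

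The largest called increase was in Mrpl12, a protein of the flexible stalk of the large subunit, where translation factors dock. Its log2 intensity was 13.20, 13.46 and 14.18 (lowest, median and highest array) in mini-muscle and 12.88, 12.97 and 13.29 in regular muscle. It was 1.41-fold higher (log2 0.49, SE 0.14, limma adjusted p = 0.012). The highest mini-muscle array was replicate 3, and the lower end of the mini-muscle range overlapped the upper end of the regular-muscle range.

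Mrpl41, a mitochondria-specific protein of the large subunit, lay at 12.38, 12.74 and 12.78 in mini-muscle and at 11.93, 12.39 and 12.73 in regular muscle (log2 0.37, SE 0.12, limma adjusted p = 0.029). Mini-muscle replicate 2, at 12.38, stood apart below its group. A second probe set of Mrpl41 gave a larger rise of 0.64, without overlap of the groups (12.19 to 12.70 against 11.50 to 12.10). Mrpl3, a protein close to the peptidyl transferase centre, lay at 12.05, 12.20 and 12.46 against 11.56, 11.91 and 12.12 (log2 0.36, SE 0.11, limma adjusted p = 0.017). The ranges of Mrpl3 overlapped narrowly. Its second probe set differed by 0.20 (adjusted p = 0.45 over all single-gene probe sets) and its dimmest above the limit by -0.06.

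Mrpl9, the counterpart of a bacterial large-subunit protein, lay at 11.64, 11.68 and 12.16 in mini-muscle against 11.19, 11.51 and 11.75 (log2 0.34, SE 0.11, limma adjusted p = 0.037). Mrps35, a mitochondria-specific protein of the head of the small subunit, lay at 11.48, 11.77 and 11.95 against 11.24, 11.37 and 11.74 (log2 0.29, SE 0.10, limma adjusted p = 0.046). Mrps16, the remaining gene called higher and a small-subunit protein with a bacterial counterpart, rose by 0.27 (limma adjusted p = 0.040). In all 6 genes called higher the highest regular-muscle array exceeded the lowest mini-muscle array.

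The 3 largest called differences were decreases, and so were the 3 without overlap of the groups. Mrpl55, a large-subunit protein with a bacterial counterpart, lay at 11.78, 12.09 and 12.22 in mini-muscle and at 12.42, 12.66 and 12.86 in regular muscle. It was 1.53-fold lower (log2 -0.61, SE 0.10, limma adjusted p = 1.8e-04), and every mini-muscle array lay below every regular-muscle array. Mrpl23, which sits at the exit of the tunnel through which the new protein leaves, lay at 13.10, 13.18 and 13.34 against 13.53, 13.60 and 13.72. It was lower by 1.33-fold (log2 -0.41, SE 0.07, limma adjusted p = 2.5e-04), again with no overlap. Mrpl42, a mitochondria-specific protein, lay at 14.59, 14.76 and 14.95 against 15.03, 15.11 and 15.15 (log2 -0.35, SE 0.07, limma adjusted p = 5.9e-04). Its regular-muscle arrays were the most tightly grouped of all 76 genes (SD 0.04), and the groups did not overlap.

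In the small subunit, Mrps28, the counterpart of a bacterial small-subunit protein, lay at 12.73, 13.25 and 13.58 in mini-muscle and at 13.52, 13.87 and 14.04 in regular muscle (1.53-fold lower, log2 -0.62, SE 0.12, limma adjusted p = 5.7e-04). Its highest mini-muscle array passed its lowest regular-muscle array by a narrow margin. Mrps10, a protein of the head of the small subunit, lay at 11.07, 11.26 and 11.75 against 11.51, 11.996 and 12.49. It was 1.58-fold lower (log2 -0.66, SE 0.17, limma adjusted p = 0.0060), with a wide spread in regular muscle (SD 0.41). The other genes called lower were Mrpl51 (-0.35, limma adjusted p = 0.0055), Mrpl36 (-0.31), Mrps18c (-0.26), Mrps21 (-0.26) and Mrps15 (-0.25), the last 4 at adjusted p between 0.033 and 0.0498.

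**Figure D2:**
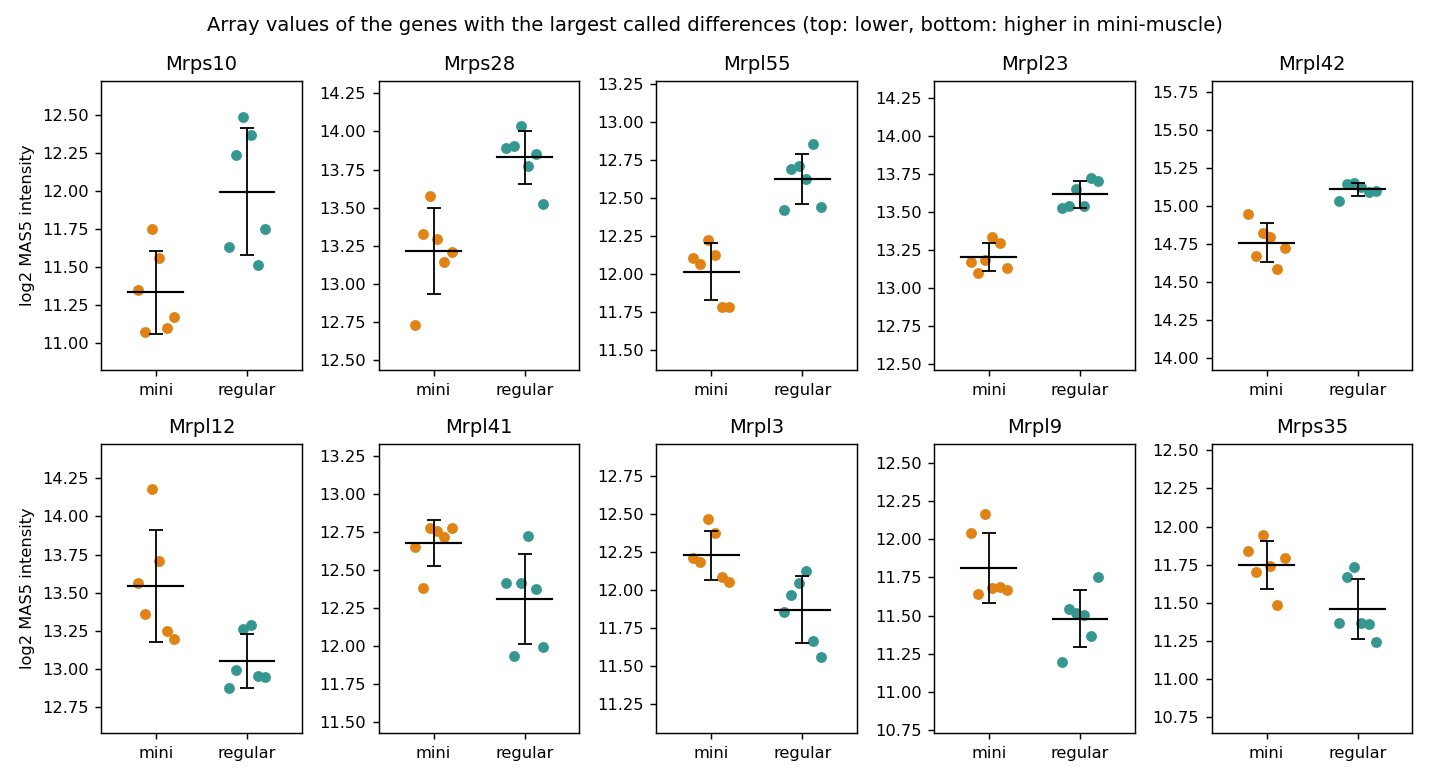
Log2 MAS5 intensity (vertical axes, all spanning the same range) of the 5 genes with the largest called decrease (top row) and the 5 with the largest called increase (bottom row), with a point for each array, 6 mini-muscle and 6 regular-muscle, and bars for the mean and SD. Mrpl55, Mrpl23 and Mrpl42 show no overlap between the groups, while the 5 increases all overlap.

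Of the 16 calls, 8 held in each of the 12 fits that left out 1 array: Mrpl12, Mrpl3, Mrpl23, Mrpl42, Mrpl51, Mrpl55, Mrps10 and Mrps28. The other 8 (Mrpl9, Mrpl36, Mrpl41, Mrps15, Mrps16, Mrps18c, Mrps21 and Mrps35) were lost in 6 to 9 of the 12 fits, and each array ended between 3 and 7 calls when left out. The count of called genes fell to 10 (13.2%, against 23.7% and 24.4% of all genes) without mini-muscle replicate 4 or mini-muscle replicate 6. It fell to 9 (11.8% against 23.7%) without regular-muscle replicate 2. Genes called higher numbered 3 in those 3 fits and without regular-muscle replicate 1. Genes called lower numbered 6 without mini-muscle replicate 2, regular-muscle replicate 2 or regular-muscle replicate 3. Without mini-muscle replicate 5, 8 were higher and 7 lower (19.7% called against 24.1%). Without regular-muscle replicate 3 the split was 6 and 6 (15.8% against 24.5%). With arrays centred on their medians, the split was 1 higher and 4 lower, and 18.0% of all genes were called; the 5 genes were Mrpl12, Mrpl23, Mrpl55, Mrps10 and Mrps28. Just outside the threshold stood Mrps30 (0.27), Mrpl4 (0.29), Mrps9 (0.26), Mrps6 (0.32) and Mrps31 (0.21), all with positive differences. Their limma adjusted p lay between 0.052 and 0.063. Next came Mrpl35, with a negative difference (-0.24, limma adjusted p = 0.071).

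The subunits had equal medians. Of 26 genes of the small subunit, 2 were higher and 5 lower (26.9% called, median -0.03). Of 49 genes of the large subunit, 4 were higher and 5 lower (18.4% called, median -0.03). The share over all genes tested was 26.7%. Mrps18a and Mrps30, which carry small-subunit names but belong to the large subunit, are counted there. Mrps36, which is now known as a component of the oxoglutarate dehydrogenase complex and not of the ribosome, differed by -0.06 (limma adjusted p = 0.82). Among the 47 proteins with bacterial counterparts 4 were higher and 8 lower (25.5% called, median -0.05). Among the 28 mitochondria-specific proteins 2 were higher and 2 lower (14.3% called, median 0.03). No test was made between these classes.

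By place in the ribosome, the head of the small subunit held calls in both directions. The other 6 places described here held calls in 1 direction or none. The 37 genes assigned to no place held 3 higher and 5 lower calls (21.6% called, against 26.7% of all genes tested). Each place holds few genes, and no test was made between places. In the platform of the small subunit, which carries the messenger exit, Mrps15, Mrps18c and Mrps21 fell, while Mrps6 (0.32) and Mrps11 did not pass. In the head, Mrps35 rose and Mrps10 fell, and the other 5 of 7 did not pass (median of the 7, 0.21). The 3 genes along the messenger path and decoding site, Mrps5, Mrps12 and Mrps24, gave 0.19, -0.05 and 0.22 and did not pass. The 4 genes of the stalks of the large subunit were counted together as 1 place. Of these Mrpl12 alone was called, with Mrpl10 at 0.09, Mrpl11 at -0.22 and Mrpl1 at -0.21. Of the 5 genes near the peptidyl transferase centre, Mrpl3 rose, and all 5 differences were positive (median 0.13). Among 8 genes at the exit tunnel Mrpl23 fell and 7 did not pass, and the 7 genes of the central protuberance did not pass, with differences between -0.11 and 0.15.

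The 60 genes that did not pass ranged from -0.73 to 0.42. Mrpl33 had the lowest difference of all 76 genes, but its arrays ran from 10.66 to 13.11 in mini-muscle and from 12.11 to 13.52 in regular muscle (SE 0.32, limma adjusted p = 0.11). Its SD was the largest of the 76 genes in either group (0.87 and 0.56). Mrpl28 had the highest difference among these (0.42, SE 0.18, limma adjusted p = 0.10), with mini-muscle replicate 3 at 11.46 below the other mini-muscle arrays. Close to 0 lay 28 genes with differences under 0.1 in size, among them Mrps2 (-0.01, 95% interval -0.18 to 0.17) and Mrpl2, a core protein of the peptidyl transferase region (0.02, -0.17 to 0.20). The genes with the highest mean log2 intensity were Mrpl42 (14.94), Mrpl51 (14.69) and Mrpl15 (13.77), and those with the lowest Mrps27 (9.60), Mrpl49 (10.53) and Mrpl1 (10.59). Intensities of different probe sets are not comparable as transcript levels.

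The mean of the 76 genes differed more between arrays than between the groups. This mean, with each gene centred on its own mean over 12 arrays, was 0.18 on mini-muscle replicate 3, 0.06 on replicate 4 and 0.02 on replicate 1. It was -0.05 on mini-muscle replicate 6, -0.12 on replicate 2 and -0.16 on replicate 5. Regular-muscle arrays lay between -0.08 (replicate 1) and 0.15 (replicate 3). Mini-muscle arrays thus held both the highest and the lowest value, and the group means differed by -0.02 against a span of 0.34 over the arrays. On mini-muscle replicate 3, 63 of the 76 genes were above their own mean, and on regular-muscle replicate 3, 59 were. On mini-muscle replicates 5 and 2, 16 and 22 were, and on regular-muscle replicate 1, 20. On the other 7 arrays the number lay between 31 and 51. The subunits parted most on mini-muscle replicate 4 (0.01 for the small, 0.09 for the large), and on regular-muscle replicates 4 and 5 their means had opposite signs (-0.02 and -0.04 for the small, 0.05 and 0.02 for the large). The mean over all genes tested varied from -0.04 to 0.03. It lay at 0.01 to 0.03 on the mini-muscle arrays and at -0.04 to -0.01 on the regular-muscle arrays, without overlap. Without both arrays numbered 3, a choice made after these values were seen, 6 genes were higher and 8 lower (18.4%, against 23.7% of all genes). When the mean of the 76 genes on each array was subtracted, also chosen afterwards, 8 were higher and 7 lower (19.7% against 23.4%). In that fit 13 of the 16 calls were kept.

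**Figure D3:**
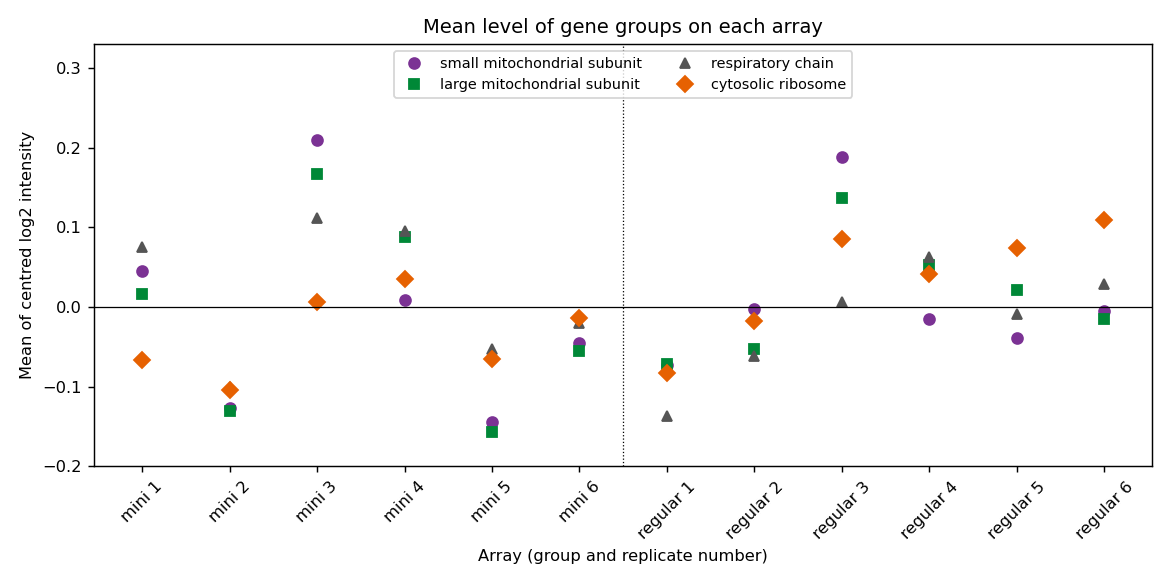
Mean of the log2 intensities of gene groups on each of the 12 arrays (horizontal axis), each gene centred on its mean over all arrays; the dotted line divides mini-muscle from regular-muscle arrays. Both subunits of the mitochondrial ribosome were high on mini-muscle replicate 3 and regular-muscle replicate 3 and low on mini-muscle replicates 2 and 5, with no offset between the groups comparable to that spread.

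Other probe sets of the same genes limit what single calls can carry. The 76 genes have 156 probe sets of their own, 121 of them above the dim limit. Over all 34958 single-gene probe sets tested together, 15 of the 156 (9.62%) were called, 6 higher and 9 lower, against 8.92% of all probe sets. Dim probe sets count in both shares, which were not matched in brightness, so their nearness does not place these genes at the background. In this fit the probe sets used for Mrpl9, Mrpl36, Mrpl41, Mrps15, Mrps16, Mrps18c, Mrps21 and Mrps35 lost their calls. Of 29 genes with several probe sets above the dim limit, 12 had probe sets of both directions, and the median range between probe sets of a gene was 0.22.

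Mrps14, a protein of the head of the small subunit, showed the widest disagreement. Its brighter probe set lay at 13.10 to 13.37 in mini-muscle and 13.11 to 13.58 in regular muscle (-0.19, adjusted p = 0.28), and its other probe set at 10.66 to 11.63 against 10.21 to 10.93 (0.83, adjusted p = 0.0024). These probe sets therefore differed in direction, and whether they read different transcripts, or whether sequence differences between lines 3 and 8 lie within probes, was not tested here for these or any other probe sets. A dimmer probe set of Mrps6 rose by 0.76 (adjusted p = 0.0033), at 10.26 to 10.84 against 9.24 to 10.18 with no overlap, where the brighter gave 0.32. Dimmer probe sets of Mrpl13 (-0.37), Mrpl15 (-0.35), Mrpl50 (-0.44) and Mrpl44 (0.29) were also called, while the brightest probe set of each was not. For 11 of the 16 called genes a single probe set lay above the dim limit. Among the other 5, the probe sets of Mrpl9, Mrpl41, Mrpl51 and Mrps15 above the limit shared a direction, and those of Mrpl3 did not. The sizes differed: the second probe set of Mrps15 gave -0.04 (adjusted p = 0.86) against -0.25, and that of Mrpl51 -0.18 (adjusted p = 0.79) against -0.35. With the mean of the probe sets of a gene, Mrps15 was at -0.05 (adjusted p = 0.92), and Mrpl3, Mrpl9, Mrpl41 and Mrpl51 were not called either.

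**Figure D4:**
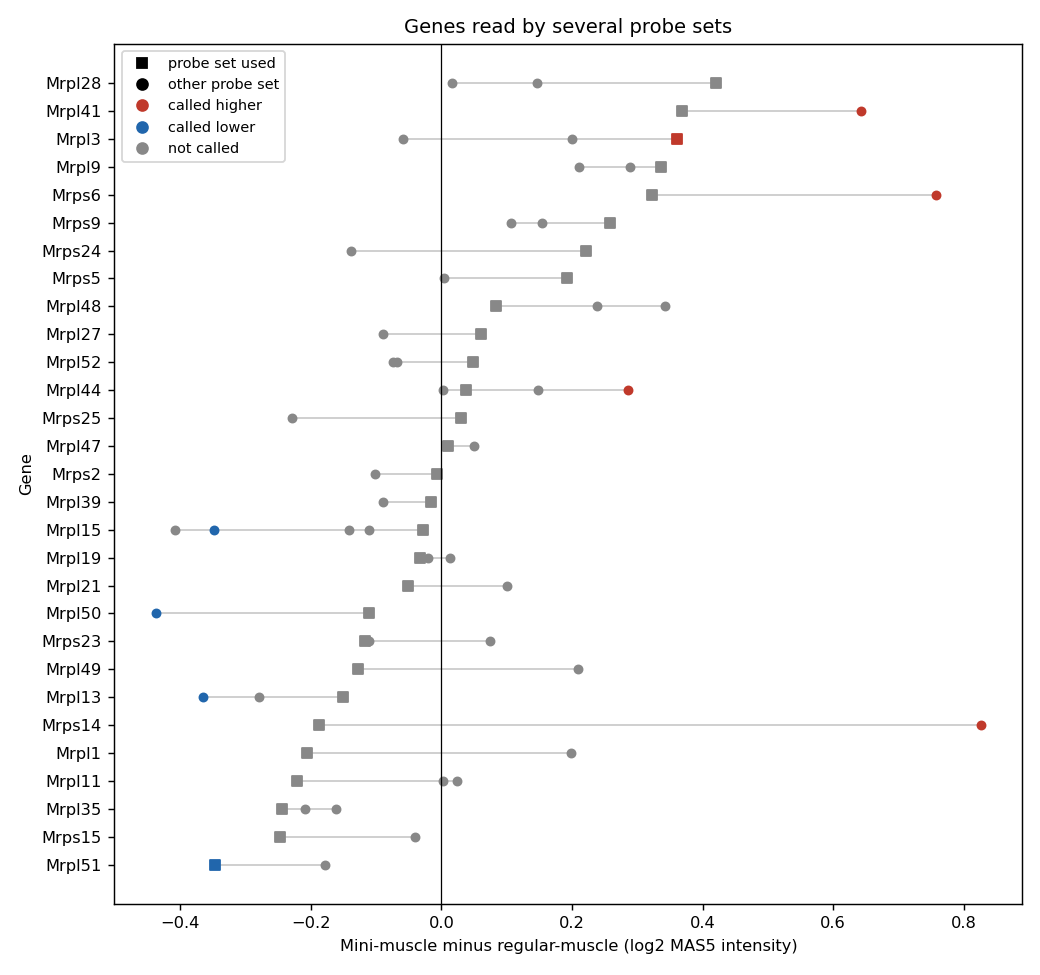
Differences in log2 intensity (horizontal axis, positive where mini-muscle is higher) of the 29 genes read by several probe sets above the dim limit, with a square for the probe set used, circles for the others and colour for the call over all single-gene probe sets. Probe sets of Mrps14 lie on opposite sides of 0, at -0.19 and 0.83.

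4 further subunits of the same ribosome carry symbols that the rule does not match. Dap3, a GTP-binding protein of the small subunit, rose by 0.33 (limma adjusted p = 0.019), from 11.44 to 11.67 in regular muscle to 11.60 to 12.12 in mini-muscle. Gadd45gip1, a large-subunit protein, rose by 0.46 (limma adjusted p = 0.024). Ptcd3, a pentatricopeptide repeat protein of the small subunit, differed by 0.09 and Chchd1 by -0.16, and neither passed. Aurkaip1 is not analysed here.

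In the lists of genes that serve this ribosome, 15.4% to 34.5% of the genes tested were called, around the 26.7% of all genes (14.9% higher, 11.8% lower). Of 14 translation factors tested, 2 rose and 2 fell (28.6% called, median 0.09), and initiation factors were among both. Mtif2, which brings the initiator tRNA to the ribosome, lay at 10.19, 10.51 and 10.65 in mini-muscle and at 11.01, 11.25 and 11.28 in regular muscle (log2 -0.70, SE 0.10, limma adjusted p = 6.6e-05). Mtif3, which acts in initiation on the small subunit, lay at 9.89, 10.11 and 10.24 against 9.43, 9.74 and 9.81 (log2 0.41, limma adjusted p = 0.013). The groups did not overlap for either. Mtrf1l, a release factor that ends translation, fell by 0.56, and the elongation factor Tufm differed by 0.31 (limma adjusted p = 0.10).

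Of 25 ribosome assembly factors 4 rose and 2 fell (24% called, median 0.08). Malsu1, which binds the large subunit during assembly, had the smallest adjusted p of the list, at 12.32, 12.56 and 12.63 in mini-muscle and 13.06, 13.21 and 13.45 in regular muscle (log2 -0.69, SE 0.08, limma adjusted p = 6.3e-06). Its groups were fully separated. Trub2, a pseudouridine synthase, rose by 0.58 and Eral1, a GTPase that chaperones the small-subunit RNA, by 0.52. Of 16 aminoacyl-tRNA synthetases and partners 3 rose (Tars2, 0.52; Gatb, 0.70; Fars2, 0.29) and 1 fell (25% called, median 0.01).

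Among 26 genes of mitochondrial DNA transcription, replication and RNA processing, 3 rose and 1 fell (15.4% called, median 0.06). Tbrg4, an RNA-binding protein of the FASTK family, rose by 0.66 and the helicase Supv3l1 by 0.49, and Trmt10c, of the mitochondrial RNase P, fell by 0.50. The polymerase Polrmt differed by 0.21 (limma adjusted p = 0.17) and the packaging and transcription factor Tfam by 0.22 (limma adjusted p = 0.066). In protein import 5 of 29 rose and 5 fell (34.5% called, median 0.06), with Immp1l (-0.36), Timm23 (-0.32) and Timm17a (-0.29) at the smallest adjusted p.

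Of 17 transcriptional regulators of mitochondrial genes 2 rose and 1 fell (17.7% called, median 0.09). Esrra, estrogen-related receptor alpha, rose by 0.70 (SE 0.14, limma adjusted p = 8.3e-04), Ppara by 0.45, and Ppard fell by 0.56. Genes for factors of the NRF-1, ETS and YY1 motifs did not pass: Nrf1 differed by 0.24 (limma adjusted p = 0.49), Gabpa by -0.11 (0.59) and Yy1 by -0.02 (0.93), and the coactivator Ppargc1a by 0.06 (0.80). CCGGAAG was found in promoters of 2 of 5 higher, 3 of 9 lower and 20 of 53 not called genes with an entry, and the NRF-1 element in 2, 1 and 9. The 4 genes with AAGGTCA, the half-site of the receptor family of Esrra, were all among the called, Mrpl12 higher and Mrpl36, Mrps15 and Mrps21 lower, and 0 of 53 not called genes had it; this was noticed after the values were seen. It rests on calls near the threshold: Mrpl36 and Mrps15 lost theirs in 9 and Mrps21 in 7 of the 12 fits without 1 array, and with arrays centred on medians only Mrpl12 of the 4 was called.

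For comparison, among 77 respiratory chain subunits tested 13 were higher and 3 lower (20.8% called, median 0.02), and among 44 cytosolic ribosomal proteins 2 were higher and 9 lower (25% called, median -0.06). Taken over both directions, both shares lie near or below the 26.7% of all genes tested (14.9% higher, 11.8% lower). By direction the lists were uneven, with mostly higher calls in the respiratory chain and mostly lower calls in the cytosolic ribosome. Over all pathway lists together, the 21 higher and 12 lower genes became 9 and 4 with arrays centred on medians and 11 and 7 where each gene was the mean of its probe sets. Differences in count between lists were not tested, and all lists share the same arrays.

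**Figure D5:**
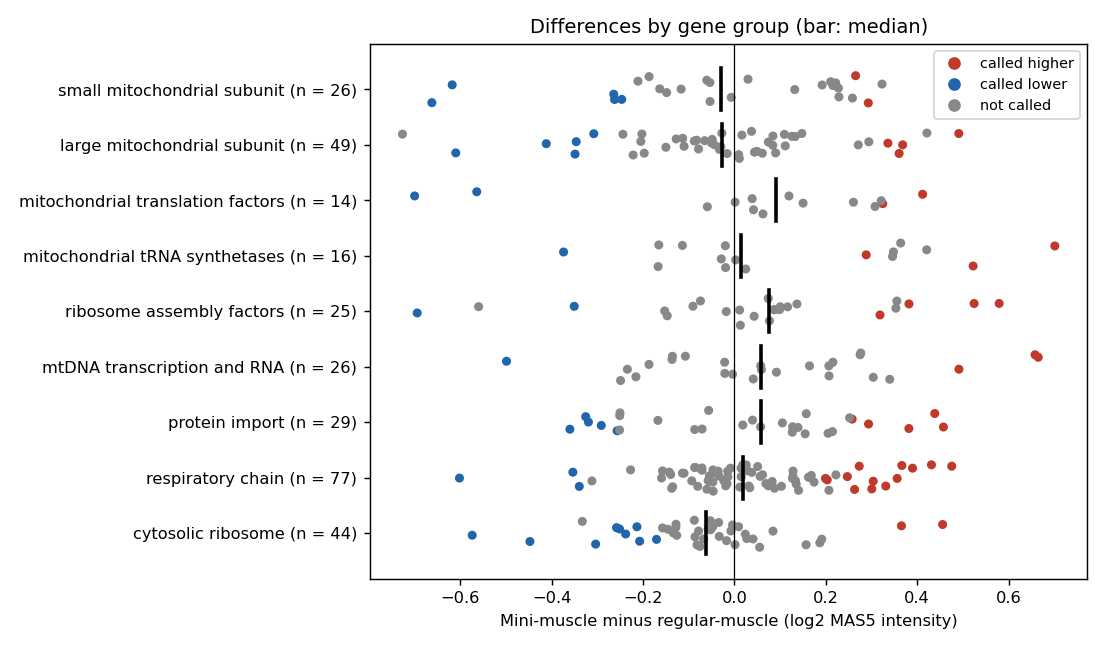
Differences in log2 intensity (horizontal axis, positive where mini-muscle is higher) of every tested gene of 9 groups (rows, with the number of genes), coloured by call, with a black bar at the median. The medians of both mitochondrial subunits lie at -0.03 and those of the other groups between -0.06 and 0.09, and all 9 groups hold genes called in both directions.

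As a check of the labelled tissue, skeletal muscle fibre genes were bright on every array, with a summed intensity of 992300 to 1151000 in mini-muscle and 1125000 to 1351000 in regular muscle. Of these 9 markers 2 were higher and 3 lower (median -0.16). The list holds fast-fibre genes (Tnnt3, Tnnc2, Mylpf, Pvalb and Atp2a1), so its sum does not stand for all muscle fibres. Slow-fibre, fibroblast and macrophage markers differed between the groups. All 8 slow-fibre markers were higher in mini-muscle (summed intensity 318200 to 438400 against 181600 to 256800). Of 7 fibroblast markers, 5 were lower and 0 higher (26290 to 45730 against 48090 to 72930), and of 6 macrophage markers 4 were tested, with 3 lower and 0 higher (3999 to 5408 against 4555 to 7817). Among 5 endothelial markers 1 was higher (5403 to 7437 against 4518 to 7193). Of 3 adipocyte markers with a probe set 2 were tested and 1 was higher (33000 to 48680 against 28680 to 40850). Of 3 Schwann cell markers 2 were tested and neither passed (2328 to 8973 against 3189 to 9298). The 3 red blood cell markers (87.9 to 509.1 against 94.46 to 875.9) and the 3 T and B cell markers (318 to 950.4 against 343.5 to 584.9) with a probe set were under the dim limit. Their part in the differences of the mitochondrial ribosome was not tested, and no marker was listed at 0 on any array. By chromosome, 11 of the 76 genes lie on chromosome 11, of which Mrpl12 rose, Mrpl55 fell and 9 did not pass.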

How the data were processed

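Total RNA (5 µg) from the gastrocnemius of 12 mice, pooled from both limbs in mini-muscle and from 1 limb in regular muscle, was hybridised to 1 array per mouse. The deposited values are linear probe set intensities made by the authors with MAS5, per the submitters' processing notes, which give no version or settings. Leaving out the top and bottom 2% of its probe sets, every array had a mean of 800 and had thus been scaled to this target. Intensities were taken to log2 with no offset and no further normalization. Symbols came from the platform annotation (34958 of 45101 probe sets with 1 gene, 932 with several, 9211 with none), and all 76 genes matched the RefSeq table. Genes below the median gene mean (log2 8.56, called dim) were left out, which left 9097.

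Groups were compared with limma 3.58.1 in R 4.3.3 (lmFit, eBayes with intensity trend, two-sided), with Benjamini-Hochberg adjustment over all genes tested, or over all single-gene probe sets where stated. Alternatives were other normalizations, offset, filters, probe set rules, no trend and each array left out. Arrays have no depth; their number limits the precision. The genes, lists (textbook knowledge) and motifs were chosen with earlier results of these data known. Every called gene of the ribosome, the 5 largest differences each way, the extremes of intensity, probe sets of opposite direction with a call, and up to 3 called genes per pathway list are named; other names were chosen after their values were seen.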

Additional observations from a re-analysis of the deposited data

Results flagged for a closer look

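Within each group of 6 arrays, an array was singled out where its gap to the nearest other array, divided by the group's range, exceeded Dixon's 95% critical value. This held in 11 of the 152 groups of 76 genes (7.24%), and chance gives about 1 in 20. On regular-muscle replicate 1, Mrpl15 (13.47), Mrpl36 (11.26) and Mrps15 (12.15) stood below the other regular-muscle arrays and Mrps27 (10.15) above them. On regular-muscle replicate 3, Mrpl52 (12.48), Mrpl58 (12.66) and Mrps23 (12.57) stood above. On regular-muscle replicate 2, Mrpl10 (10.77) stood below. Of the mini-muscle arrays, replicate 2 was high for Mrpl2 (12.67) and low for Mrpl41 (12.38), and replicate 3 was low for Mrpl28 (11.46). Of these genes, Mrpl36, Mrpl41 and Mrps15 were called. Without regular-muscle replicate 1, Mrpl36 and Mrps15 kept their calls.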

How the results depend on the processing

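The differences of Mrpl12, Mrpl23, Mrpl55, Mrps10 and Mrps28 kept direction and call in each of the 22 alternatives that measured them (Mrpl55 in 21, having no plain _at probe set), and 0 of the 16 called genes changed direction in any. Genes of the mitochondrial ribosome called numbered 16 (6 higher, 10 lower), or 21.1% against 26.7% of all genes tested. With arrays centred on medians they numbered 5 (1 and 4), or 6.58% against 18.0%. Without the dim filter, where 18194 genes were tested, 9 (3 and 6) were called, or 11.8% against 12.1%. With the mean of all probe sets the number was 6 (2 and 4), or 7.9% against 17.0%. Without the intensity trend it was 8 (2 and 6), or 10.5% against 24.8%. With plain _at probe sets only, 6 were higher and 5 lower among 59 genes measured (18.6% against 23.7%). There the lower calls no longer outnumbered the higher. Leaving out 1 array gave 9 to 15 (3 to 8 higher, 6 to 10 lower), or 11.8% to 19.7%, against 23.7% to 26.3% of all genes. Lower calls did not outnumber the higher without mini-muscle replicate 5 (8 higher, 7 lower) or regular-muscle replicate 3 (6 and 6). The median difference ranged from -0.06 to 0.01 over the fits without 1 array. Of all genes, 651 were lower with centred arrays, and 862 higher and 681 lower with the mean of all probe sets (1356 and 1070 otherwise). Pathway genes called (21 higher, 12 lower) numbered 9 and 4 with centred arrays and 11 and 7 with the mean of all probe sets. The causes of these changes were not tested. No paired analysis was made, because each array holds a different animal and the groups come from different lines. Probe sets under the dim limit, 35 of the 156, are not described singly. That limit is the median of the gene means, and how near these probe sets lie to background was not measured.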
